A study of Homo sapiens with 10 samples.

Results

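The hypoxia response was followed through 10 genes in Caco-2 cells: the factors HIF1A and EPAS1, and CA9, VEGFA, ADM, NDRG1, BNIP3, EGLN3, ANKRD37 and P4HA1, which are known targets of these factors outside glycolysis. They were picked by gene symbol, in a choice made with earlier results of these data known, and are 10 of the 60554 genes in the tables. Of the 10 members, 8 passed the expression filter and were tested among 11640 protein-coding genes, whereas CA9 and EGLN3 did not pass it. Caco-2 cells derive from a human colon carcinoma and take on enterocyte features in culture. All libraries came from a monoclonal Caco-2 clone carrying dCas9-KRAB, a Cas9 that does not cut and is fused to a repressor domain (CRISPR interference), which was then infected with a second lentivirus. In 5 libraries this virus carried an empty gRNA plasmid (gCtl), and in the others it carried a guide against the long noncoding RNA LHFPL3-AS2, either g1 (3 libraries) or g2 (2 libraries). As only 1 clone was used, the groups describe that clone, and the labels do not say whether libraries of a group came from separate cultures, so that p-values measure the spread between libraries. Replicate numbers were given here in the order of deposit and only name a library.

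HIF1A and EPAS1 (HIF-2alpha) encode the oxygen-labile alpha subunits of the hypoxia-inducible factors. When oxygen is present, prolyl hydroxylases of the EGLN family mark the alpha subunits for binding by VHL and destruction by the proteasome. When oxygen is low they persist, pair with ARNT and bind short sequences with the core ACGTG or GCGTG near genes of angiogenesis, pH control, mitophagy, collagen maturation and glycolysis. In the intestine HIF-2alpha is also known for its part in iron uptake. Because the alpha subunits are mainly controlled as proteins, their mRNA levels are not a measure of HIF activity.

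The promoter stretches that hold this core are shown to give where it occurs near the starts of the members. Most members were picked as known targets of factors that bind this core, so its presence is not independent of that choice. RefSeq windows (GRCh38.p14) running from 250 bases before to 50 bases after a start were found for 8 of the 10 members, with 9 windows in all since HIF1A has 2. The letters searched were ACGTG and GCGTG on both strands, so that CACGT and CACGC mark a match on the opposite strand and CACGTG counts once on each strand. Capitals mark the matched letters, and each sequence is written 5′ to 3′ on the strand of its gene. A match is only a match of letters and was not tested for binding. The stretches lie at chr14:61695296-61695325 (HIF1A, plus strand), chr2:46297277-46297306 (EPAS1, plus), chr11:10304959-10304988 (ADM, plus), chr10:131982014-131982073 (BNIP3, minus), chr4:185396676-185396705 (ANKRD37, plus), chr10:73096935-73096964 (P4HA1, minus) and chr9:35673895-35673924 (CA9, plus).
HIF1A: ttggctgagagcgGCGTGggctggggtggg
EPAS1: ggggcctgccggcGCGTGcccgcccacaca
ADM: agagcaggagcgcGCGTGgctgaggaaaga
BNIP3: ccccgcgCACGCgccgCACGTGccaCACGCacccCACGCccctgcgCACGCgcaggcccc
ANKRD37: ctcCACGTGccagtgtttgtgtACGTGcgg
P4HA1: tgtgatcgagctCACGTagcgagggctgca
CA9: ctctcgtttccaatgCACGTacagcccgta

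The core was present in 7 of the 9 member windows (77.8%), against 17012 of 35116 windows of the same length over all genes (48.4%). Its letters did not occur in the EGLN3 window or in the second HIF1A window. BNIP3 carried 6 matches packed between bases -143 and -100 before its start, ANKRD37 carried 3, and the other windows with a match carried 1. The palindrome CACGTG, which stood in the BNIP3 and ANKRD37 windows, was found in 7.26% of all windows.

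The libraries were made with QuantSeq, which reads the 3′ end of polyadenylated RNA, and held 3838803 to 5674360 estimated counts in gCtl, 4649985 to 8730468 in g1 and 6130698 and 7325087 in g2. Levels are given as CPM, counts scaled by TMM to a library total of 1000000, and as RPM without TMM, and differences as log2 fold changes from edgeR. LHFPL3-AS2 itself was at 2.23 ± 1.17 RPM (SD, n = 5) in gCtl, and at 3.45 ± 1.63 RPM (SD, n = 5) over the 5 libraries with a guide label. In these libraries the targeted RNA was therefore not lower where a guide was labelled (log2 fold change 0.61, SE 0.42, edgeR adjusted p = 0.381). That fit took every biotype with at least 10 counts, and the value rests on 4.39 to 44 counts per library. The paper, by contrast, reports lower LHFPL3-AS2 with both guides by qPCR normalized to GAPDH, which is another measure than RPM. GAPDH was itself called lower here with each guide, as given below. The groups below are named by their labels. The 8 epithelial markers had a summed level of 1580 to 1990 RPM in gCtl, 1520 to 1810 RPM in g1 and 1490 to 1530 RPM in g2, most of it from EPCAM, KRT18 and KRT8, while KRT20 was low (1.08 to 9.97 RPM) and CDX1 was near 0. With g2, KRT20 was called higher (1.91, edgeR adjusted p = 0.00308) and KRT18 lower (-0.78, edgeR adjusted p = 0.0494), and their part in the results with g2 was not tested.

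Between the libraries labelled g1 and gCtl, 3 members rose and none fell: HIF1A, VEGFA and BNIP3. Over all tested genes 16.8% were called in this comparison, 6.81% as higher and 9.95% as lower. A gene was called when its edgeR adjusted p was 0.05 or less and it differed 1.5-fold or more. Between g2 and gCtl, HIF1A and NDRG1 rose and ADM fell, with 23.7% of all genes called, 10.7% as higher and 13.0% as lower. HIF1A was the member called with each guide, but both comparisons use the same 5 gCtl libraries and are not independent. With g1 and g2 taken as 1 group, HIF1A, VEGFA and BNIP3 were called higher, with 19.2% of all genes called and 8.14% as higher. Over all tested genes, the median of the log2 fold change was 0.01 with g1 and -0.0017 with g2.

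Between g2 and g1, edgeR called 0 members, while 3 had an unadjusted p under 0.05 (ADM, NDRG1 and BNIP3), and 4.98% of all genes were called. DESeq2 called 1 member there, ADM. VEGFA, BNIP3, NDRG1 and ADM each passed the threshold with 1 guide alone, and the edgeR fit did not show the guides to differ for any of them. The difference between g2 and g1 was -0.48 for VEGFA (SE 0.23, edgeR adjusted p = 0.245), -0.61 for BNIP3 (SE 0.27, edgeR adjusted p = 0.220) and 0.84 for NDRG1 (SE 0.35, edgeR adjusted p = 0.188).

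**Figure D1:**
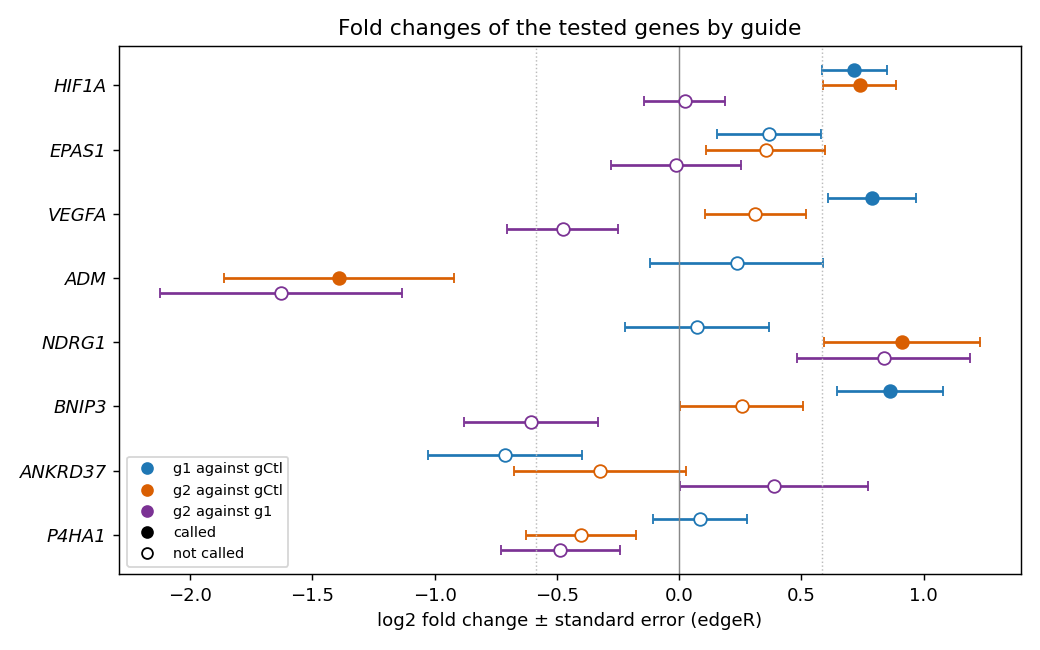
Log2 fold change (x axis, bars are ± 1 SE) of each tested member for g1 against gCtl, g2 against gCtl and g2 against g1, from the edgeR fit with 3 groups, with filled points called, open points not called and dotted lines at a fold of 1.5. HIF1A lies near 0.7 with either guide (0.72 and 0.74), whereas ADM lies at 0.24 with g1 and -1.39 with g2.

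HIF1A, the widely expressed alpha subunit, lies at chr14:61695513-61748259 on the plus strand (GENCODE 29, GRCh38). Its level was 38.5, 34.9, 38.7, 34.4 and 41.6 CPM in gCtl replicates 1 to 5. It was 59.7, 61.4 and 64.6 CPM in the g1 libraries and 69.4 and 56.4 CPM in the g2 libraries. All 5 libraries labelled with a guide stood above all 5 gCtl libraries, as in 7.13% of tested genes. Taken by guide, 13.1% of genes stood wholly above gCtl with g1 and 18.2% with g2, while 13.5% and 19.7% stood wholly below gCtl. The group means were 37.6 ± 2.96 CPM in gCtl (SD, n = 5), 61.9 ± 2.49 CPM in g1 (SD, n = 3) and 62.9 ± 9.18 CPM in g2 (SD, n = 2). By edgeR the log2 fold change was 0.72 with g1 (SE 0.13, adjusted p = 0.00181) and 0.74 with g2 (SE 0.15, adjusted p = 0.00249). With both guides in 1 group it was 0.73 (SE 0.12, edgeR adjusted p = 0.000862), and between the guides it was 0.02 (SE 0.16, edgeR adjusted p = 0.956). These levels rest on 945, 1179 and 775 counts in gCtl, g1 and g2.

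The HIF1A values depended on whether counts were divided by transcript length. QuantSeq reads the 3′ end, so counts are not expected to grow with transcript length, and TPM is given only as an alternative scale. On the TPM scale HIF1A was 19.7 ± 3.37 in gCtl (SD, n = 5), 27.8 ± 1.41 in g1 (SD, n = 3) and 19.4 ± 1.29 in g2 (SD, n = 2), so that its level in g2 was not above gCtl, and by limma on log2(TPM + 1) HIF1A was not called with g1 (0.49, adjusted p = 0.0671). A short transcript of 739 bases, HIF1A-011, carried 6.51 TPM of the gCtl mean, 7.59 TPM of the g1 mean and 0 in g2. In a split made after these values were seen, the means without that transcript were 13.2 ± 3.02 TPM in gCtl (n = 5), 20.3 ± 1.34 TPM in g1 (n = 3) and 19.4 ± 1.29 TPM in g2 (n = 2). The call with g2 was also lost without g2 replicate 1, where the log2 fold change was 0.58 and under the fold minimum. The antisense gene HIF1A-AS2, which overlaps HIF1A, held 16 counts over the 10 libraries against 2899 for HIF1A, and the counting is not stated to use strand.

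EPAS1 (chr2:46293667-46386703, plus strand) encodes HIF-2alpha, the alpha subunit linked to intestinal iron uptake. The gCtl libraries held 37.2, 20.4, 34.7, 27.9 and 30.4 CPM, the g1 libraries 29.99, 34.6 and 51.4 CPM, and the g2 libraries 45.5 and 31.5 CPM. The groups overlapped, and only g1 replicate 3 and g2 replicate 1 stood above all gCtl libraries. EPAS1 was not called with either guide, at a log2 fold change of 0.37 with g1 (SE 0.21, edgeR adjusted p = 0.242) and 0.35 with g2 (SE 0.24, edgeR adjusted p = 0.296). With 1 library left out the EPAS1 value ran from 0.086 (without g1 replicate 3) to 0.52 with g1 and from 0.065 (without g2 replicate 1) to 0.61 with g2, and by limma on log2(TPM + 1) it was 0.635 and 0.64, not called in any of these. Of its counts, 61.1% were assigned to a transcript annotated as a retained intron. The coding transcript EPAS1-001 held 29.9% of EPAS1 counts in gCtl, 14.7% in g1 and 12.5% in g2, and transcript use was not tested.

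EGLN3 (chr14:33924231-34462774, minus strand) encodes a prolyl hydroxylase that acts on HIF-alpha and is itself a HIF target, a feedback loop. It was counted 0, 2, 7, 4 and 0 times in gCtl replicates 1 to 5, 16, 13 and 15 times in the g1 libraries, and 7 times in each g2 library. Each g1 library thus held more counts than any gCtl library, whereas the g2 counts reached the highest gCtl count. EGLN3 did not pass the filter, so it was tested in a wider fit that took every biotype and a minimum of 10 counts, in which 8.61% of genes were called with g1 and 13.4% with g2. There its log2 fold change was 2.14 with g1 (SE 0.72, edgeR adjusted p = 0.0666) and 1.04 with g2 (SE 0.86, edgeR adjusted p = 0.462), and it was not called. Under edgeR's own expression filter the g1 difference was 2.16 and passed the threshold (edgeR adjusted p = 0.0386). EGLN3 passed that filter through its g1 libraries, at 1.72 to 2.80 RPM against at most 1.26 RPM in gCtl. That result is therefore not independent of the difference tested.

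**Figure D2:**
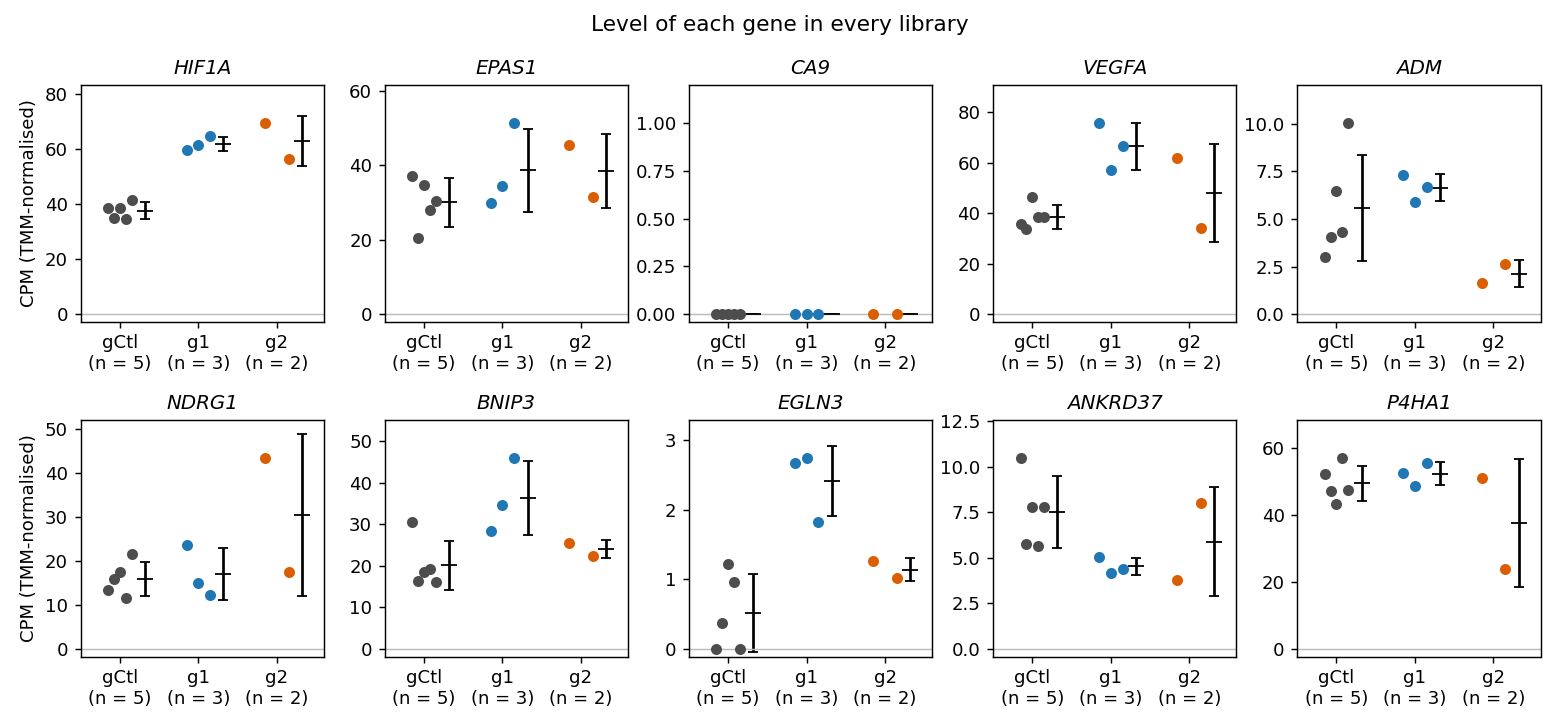
Level of each of the 10 members (y axis, CPM) in every library, by group (x axis), with 1 point per library and black marks for the mean ± SD. The g1 and g2 points of HIF1A sit between 56.4 and 69.4 CPM, above the gCtl points, and CA9 is at 0 in every library.

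VEGFA encodes the vascular endothelial growth factor that drives blood vessel growth. Its gCtl levels were 35.7, 33.6, 46.2, 38.3 and 38.4 CPM, its g1 levels 75.6, 57.2 and 66.4 CPM, and its g2 levels 61.6 and 34.1 CPM. The g1 libraries all stood above gCtl, while the g2 libraries were split, g2 replicate 1 lying above gCtl and g2 replicate 2 within its range. The means were 38.4 ± 4.75 CPM in gCtl (SD, n = 5), 66.4 ± 9.18 CPM in g1 (SD, n = 3) and 47.9 ± 19.4 CPM in g2 (SD, n = 2). A transcript annotated as a retained intron, VEGFA-010, held 23.5% of VEGFA counts in gCtl, 31.8% in g1 and 16.7% in g2. VEGFA rose with g1 by 0.79 on the log2 scale (SE 0.18, edgeR adjusted p = 0.00657) and was not called with g2, at 0.31 (SE 0.21, edgeR adjusted p = 0.279). With both guides in 1 group it was 0.62 (SE 0.18, edgeR adjusted p = 0.0236), a call lost without any 1 of gCtl replicates 1, 2 and 4 and g1 replicates 1 and 3 (adjusted p = 0.0534 to 0.0644). Without g2 replicate 2 the g2 value was 0.69 and called, and without g2 replicate 1 it was -0.18.

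ADM (chr11:10304680-10307397, plus strand) encodes adrenomedullin, a secreted vasodilator peptide. It was low, with 2.999, 4.04, 6.45, 4.33 and 10.03 CPM in gCtl, 7.33, 5.91 and 6.70 CPM in g1, and 1.61 and 2.62 CPM in g2. Both g2 libraries were below every other library, and the g1 libraries lay inside the gCtl range. Neither g2 library was above 3 RPM (1.47 and 2.46 RPM), so ADM was kept by the filter for its level in gCtl and g1. ADM fell by 1.39 on the log2 scale with g2 (SE 0.47, edgeR adjusted p = 0.0392), a value that rests on 27 counts in g2 against 146 in gCtl. With g1 it was 0.24 (SE 0.35, edgeR adjusted p = 0.686). The difference between g2 and g1 was -1.63 (SE 0.49, edgeR adjusted p = 0.0679) and did not pass the threshold, whereas DESeq2 gave -1.62 (adjusted p = 0.0349) and called it. The g2 call was lost without gCtl replicate 5 (-1.07, edgeR adjusted p = 0.0678), and also without gCtl replicate 3 or either g2 library.

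BNIP3 (chr10:131966455-131982013, minus strand) encodes a mitochondrial outer membrane protein that takes part in mitophagy. In gCtl it was 30.5 CPM in replicate 1 and 16.3, 18.6, 19.2 and 16.0 CPM in the others, against 28.3, 34.6 and 45.9 CPM in g1 and 25.5 and 22.4 CPM in g2. Apart from gCtl replicate 1, every gCtl library was below every library labelled with a guide. The means were 20.1 ± 5.95 CPM in gCtl (SD, n = 5), 36.3 ± 8.95 CPM in g1 (SD, n = 3) and 23.9 ± 2.14 CPM in g2 (SD, n = 2). BNIP3 rose with g1 by 0.86 (log2, SE 0.22, edgeR adjusted p = 0.0111) and was 0.26 with g2 (SE 0.25, edgeR adjusted p = 0.479). With both guides in 1 group it was 0.65 (SE 0.22, edgeR adjusted p = 0.0451), a call lost without any 1 of gCtl replicates 2 to 5 or any g1 library (adjusted p = 0.0518 to 0.136). The g1 call was lost without g1 replicate 3 (0.64, edgeR adjusted p = 0.0931). BNIP3 has 39 annotated pseudogenes whose counts, summed, came to 11.6% of those of BNIP3, so reads could be split between the copies.

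NDRG1 encodes a cytoplasmic stress-response protein, and its gene was named for its regulation by N-myc. Its gCtl levels were 13.5, 15.8, 17.4, 11.6 and 21.6 CPM, its g1 levels 23.7, 14.98 and 12.3 CPM, and its g2 levels 43.4 and 17.4 CPM. The high mean in g2 came from replicate 1, since replicate 2 lay within the gCtl range. NDRG1 was called higher with g2 (log2 fold change 0.91, SE 0.32, edgeR adjusted p = 0.0458) and was 0.07 with g1 (SE 0.30, edgeR adjusted p = 0.887). Without g2 replicate 1 the g2 value dropped to 0.11 (edgeR adjusted p = 0.837), and the call was also lost without any 1 of gCtl replicates 1 to 4. A transcript annotated as a retained intron held 83.0% of NDRG1 counts.

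ANKRD37 (chr4:185396021-185400628, plus strand) encodes a small ankyrin repeat protein. It was 10.5, 5.75, 7.81, 5.63 and 7.78 CPM in gCtl, 5.04, 4.17 and 4.38 CPM in g1, and 3.77 and 8.0 CPM in g2. The g1 libraries were all below gCtl, but the difference of -0.71 (log2, SE 0.32) did not pass the threshold (edgeR adjusted p = 0.124), and with g2 it was -0.32 (SE 0.35, edgeR adjusted p = 0.525). Almost all ANKRD37 counts (96.7%) were assigned to a transcript annotated as a retained intron.

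P4HA1 (chr10:73007217-73096974, minus strand) encodes the catalytic subunit of the prolyl 4-hydroxylase that matures collagen. Its levels were 52.2, 47.2, 43.3, 57.0 and 47.5 CPM in gCtl, 52.5, 48.7 and 55.7 CPM in g1, and 51.1 and 23.99 CPM in g2. All libraries lay close together except g2 replicate 2, which was the lowest. P4HA1 was not called with g1 (0.08, SE 0.19, edgeR adjusted p = 0.794) or with g2 (-0.40, SE 0.23, edgeR adjusted p = 0.203), but without g2 replicate 1 the g2 value was -1.04 (edgeR adjusted p = 0.00253). The estimated split of P4HA1 counts over its transcripts differed between groups, P4HA1-001 holding 31.8% in gCtl, 68.8% in g1 and 91.4% in g2. Reads of the 3′ end may not tell P4HA1-001 from P4HA1-002, both 2727 bases long, and transcript use was not tested.

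CA9 (chr9:35673856-35681159, plus strand) encodes carbonic anhydrase 9, a cell-surface enzyme of pH control that is widely used as a marker of hypoxia. No count was assigned to it in any of the 10 libraries, which allows a level of up to 0.344 to 0.781 RPM by library if 3 counts are taken as the limit. A difference between groups below that limit was not detectable at this depth.

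Leaving out 1 library at a time showed which members rest on few libraries. HIF1A with g1 was called in each of these fits, whereas NDRG1 with g2 changed from 0.91 to 0.11 and VEGFA with g2 ran from -0.18 to 0.69. Of the 2 g2 libraries, replicate 1 was well above replicate 2 in VEGFA, NDRG1 and P4HA1 and well below it in ANKRD37.

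**Figure D3:**
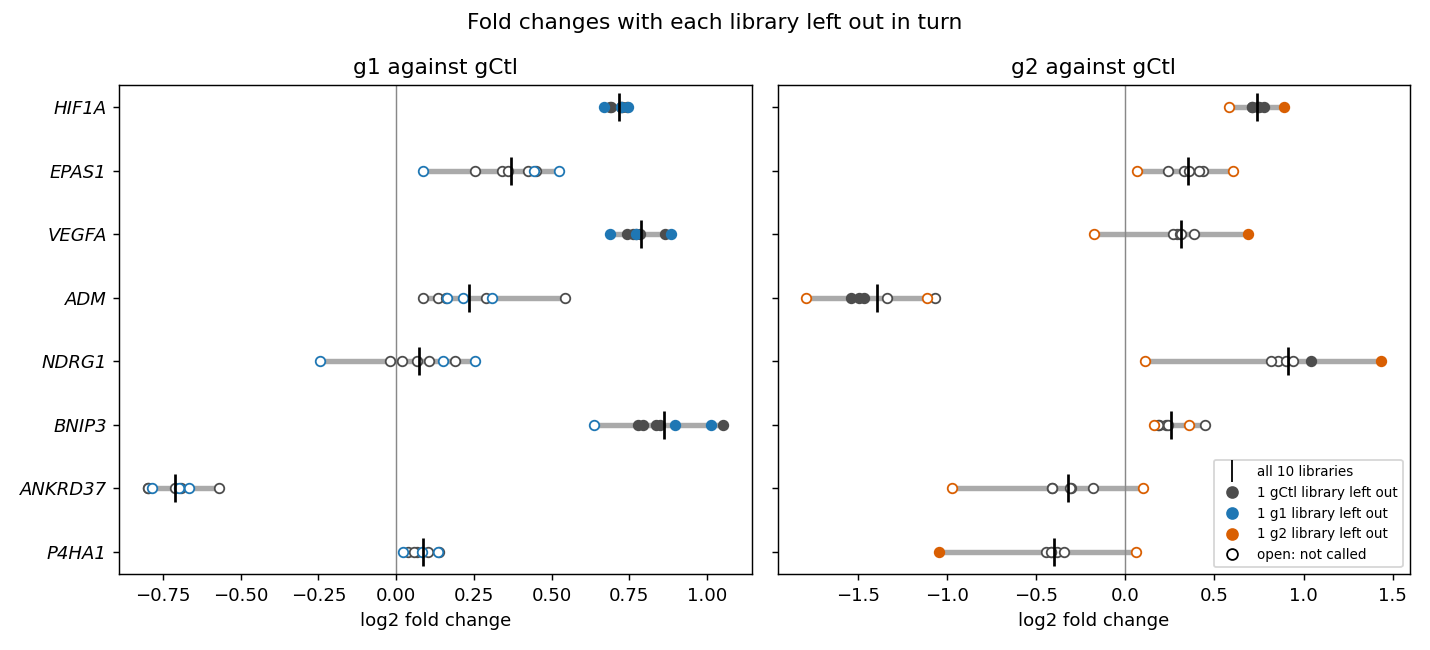
Log2 fold change against gCtl (x axis) of each tested member with all 10 libraries (black tick) and with 1 library left out at a time (points coloured by the group of that library, filled where called), for g1 and for g2. HIF1A with g1 stays called at 0.67 to 0.74, and the g2 values of VEGFA spread from -0.18 to 0.69.

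The other genes of the pathway were described by lists that were chosen with earlier results of these data known. Calls in these lists stand beside a share over all tested genes of 16.8% with g1 and 23.7% with g2. Among partners and cofactors of the factors, 5 of 7 were tested. CREBBP, a coactivator, rose with g1 (log2 fold change 0.71, SE 0.13, edgeR adjusted p = 0.00208) and was 0.31 with g2 (edgeR adjusted p = 0.149). HIF3A, a related alpha subunit, rose with g2 (0.99, SE 0.24, edgeR adjusted p = 0.00699) and was 0.16 with g1 (edgeR adjusted p = 0.655). The other tested members of that list were not called with either guide, among them ARNT, the dimer partner, at 0.15 with g1 and 0.76 with g2 (edgeR adjusted p = 0.739 and 0.0638). The list's median was 0.16 with g1 and 0.62 with g2.

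Of 8 genes for oxygen sensing and degradation, all were tested and 1 was called. TCEB2 (elongin B), part of the ubiquitin ligase that VHL directs, rose with g1 by 0.94 (log2, SE 0.15, edgeR adjusted p = 0.000576) and with g2 by 0.65 (SE 0.17, edgeR adjusted p = 0.00936). VHL was 0.05 with g1 and 0.28 with g2, and EGLN1, the main oxygen-sensing hydroxylase, was -0.28 and -0.14, none of them called. The median of the list was -0.10 with g1 and 0.05 with g2.

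Of 35 other targets outside glycolysis, 25 were tested. With g1, 2 rose and 4 fell, where 6.81% and 9.95% of all tested genes did so. With g2, 3 rose and 3 fell, where 10.7% and 13.0% of all tested genes did so. The medians of the list were -0.01 and -0.03. KDM3A, a histone demethylase, rose with g1 (0.74, edgeR adjusted p = 0.0140) and with g2 (1.01, edgeR adjusted p = 0.00348). CA12, a cell-surface carbonic anhydrase like CA9, rose with g1 (1.12, edgeR adjusted p = 0.0103) and was 0.66 with g2 (edgeR adjusted p = 0.138). PLOD1, a lysyl hydroxylase of collagen, fell with each guide, at -1.02 with g1 and -1.21 with g2 (edgeR adjusted p = 0.00528 and 0.00411). RAB20, a small GTPase, fell by 1.41 with g1 (SE 0.40, edgeR adjusted p = 0.0207) and was -1.17 with g2 (edgeR adjusted p = 0.0687). STC2, a secreted glycoprotein, fell with g2 (-1.195, SE 0.30, edgeR adjusted p = 0.00918) and was -0.35 with g1 (edgeR adjusted p = 0.332). BHLHE40, a transcriptional repressor, fell by 2.76 with g2 (SE 0.87, edgeR adjusted p = 0.0287), on 5 counts in g2 against 74 in gCtl, and was -0.15 with g1 (edgeR adjusted p = 0.878). Its groups overlapped, as gCtl replicate 4 (0.241 CPM) lay below both g2 libraries (0.359 and 0.472 CPM). BHLHE40 passed the filter through gCtl and g1 libraries, so its fall with g2 is not independent of the filter. P4HA2, a paralog of P4HA1, fell by 0.64 with g1 (edgeR adjusted p = 0.0435) and was -0.54 with g2 (edgeR adjusted p = 0.114). BNIP3L, the paralog of BNIP3, rose with g2 by 0.94 (edgeR adjusted p = 0.0369) and was 0.21 with g1 (edgeR adjusted p = 0.664).

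Of 21 glycolytic targets of HIF, 17 were tested. With g1, 1 rose and 7 fell, where 6.81% and 9.95% of all tested genes did so. With g2, 1 rose and 8 fell, where 10.7% and 13.0% of all tested genes did so. The medians of the list were -0.14 and -0.54. With g2, SLC2A3, a glucose transporter, fell by 2.34 (SE 0.21, edgeR adjusted p = 4.51e-06), and with g1 it was -1.04 (edgeR adjusted p = 0.000568). PFKP, a phosphofructokinase, and PGAM1, a phosphoglycerate mutase, fell with g2 as well, at -2.10 and -1.77 (edgeR adjusted p = 0.000221 and 0.000131), and with g1, at -1.61 and -1.06 (edgeR adjusted p = 0.000475 and 0.00152). GAPDH fell by 1.72 with g1 (SE 0.28, edgeR adjusted p = 0.000718) and by 1.54 with g2 (edgeR adjusted p = 0.00309). The gene that rose was SLC16A3 with each guide, at 1.45 with g1 and 1.49 with g2 (edgeR adjusted p = 0.000229 and 0.000256). LDHA, lactate dehydrogenase A, was -0.04 with g1 and -0.23 with g2 and was not called.

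Of 5 intestinal iron genes known as HIF-2alpha targets, 2 rose and 1 fell with g1, and 1 rose and 1 fell with g2. Among all tested genes 6.81% rose and 9.95% fell with g1, and 10.7% rose and 13.0% fell with g2. CYBRD1, the duodenal ferric reductase, rose with g1 by 1.53 (SE 0.50, edgeR adjusted p = 0.0401) and with g2 by 1.72 (SE 0.54, edgeR adjusted p = 0.0289). These values rest on 21, 49 and 37 counts in gCtl, g1 and g2. The gCtl libraries held 0.37 to 1.12 CPM of CYBRD1. It passed the filter only through libraries with a guide label, g1 replicate 3 (3.25 CPM) and g2 replicate 2 (3.84 CPM). Its rise is therefore not independent of the filter. HEPH, the ferroxidase hephaestin, rose with g1 by 0.74 (SE 0.17, edgeR adjusted p = 0.00639) and was 0.26 with g2 (edgeR adjusted p = 0.339). TFRC, the transferrin receptor, fell with each guide, at -0.90 with g1 (SE 0.19, edgeR adjusted p = 0.00418) and -1.149 with g2 (SE 0.22, edgeR adjusted p = 0.00206). The median of the list was 0.26 with either guide.

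Genes whose pattern over the 10 libraries was most like that of a called member were found by the mean absolute difference of their centred log2 CPM. For HIF1A, FAM13A was nearest (0.082), where the median over all tested genes was 0.438. For VEGFA they were BACH1 (0.127) and KIAA1551 (0.136), and for BNIP3 they were MNAT1 (0.136) and HEPH (0.145). ACP2 (0.247) and PAQR7 (0.254) were nearest to ADM, and ZGRF1 (0.19) and GTF2I (0.198) to NDRG1.

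Markers of other cell types stayed low, LYZ, a leukocyte marker, being the highest. The 4 endothelial markers summed to 2.15 to 3.66 RPM in gCtl, 4.93 to 10.1 RPM in g1 and 2.20 to 4.52 RPM in g2, so that they were higher in g1, where VEGFA rose, and their part in that result was not tested. PECAM1 was the 1 endothelial marker that passed the filter, and it rose with g1 by 1.29 (edgeR adjusted p = 0.0214), while KDR, VWF and CDH5 were near 0. Of 4 fibroblast and 4 leukocyte markers, 1 each passed the filter and was not called with either guide. Fibroblast markers summed to 3.71 to 9.09 RPM in gCtl, 7.98 to 10.6 RPM in g1 and 5.23 to 8.11 RPM in g2. Leukocyte markers summed to 11.2 to 21.2, 12.5 to 29.4 and 20.5 to 21.4 RPM. Most of the leukocyte sum came from LYZ, at 10.4 to 26.9 RPM over the libraries. In bulk RNA, fewer cells expressing a gene and less of its RNA per cell cannot be told apart.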

How the data were processed

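RNA from 10 Caco-2 libraries was sequenced with QuantSeq 3′ kits. The authors deposited estimated counts for 199169 transcripts per library, made with Kallisto (version 42.5 in the submitters' processing notes) on GENCODE transcripts. These were not normalized. Estimated counts were summed per gene and rounded. Tests covered protein-coding genes above 3 RPM in 20% or more of the libraries and used edgeR 4.0.16 (quasi-likelihood, TMM) in R 4.3.3 with Benjamini-Hochberg adjustment. A fit with 2 groups gave g1 and g2 together against gCtl, and a fit with 3 groups gave the other comparisons. Called genes had an adjusted p of 0.05 or less and differed 1.5-fold or more. SE is the absolute log2 fold change over the root of F. TPM was computed from transcript lengths. The count limit of 3 covers counting error only. In simulated data with 200 genes changed 3-fold among 11640, edgeR recovered 88.5% with g1 and 82% with g2.

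Members and gene lists were chosen with earlier results of these data known. All members are named. From each list up to 4 called genes of largest change are named, as are the 2 nearest genes to each member called with a guide, except 1 that is not reported here. Other list genes (ARNT, VHL, EGLN1, KDM3A, CA12, P4HA2, BNIP3L, SLC16A3 and LDHA) were chosen after their values were seen. Alternatives were DESeq2 1.42.0, limma 3.58.1 on log2(RPM + 1) and log2(TPM + 1), other scalings and filters, a test against the fold minimum and leaving out each library. Replicates of a group differed by more than sampling noise, at a chi-square of 4.24 to 24.2 per degree of freedom. Gene positions are from GENCODE 29.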

Additional observations from a re-analysis of the deposited data

Results flagged for a closer look

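BNIP3 in gCtl replicate 1 stood apart from the other gCtl libraries, at 30.5 CPM. Its gap to the next library was 0.778 of the range of the 5 gCtl libraries, above Dixon's critical value of 0.71. This was 1 of 9 members examined in gCtl, and chance alone gives such a gap in about 1 of 20 groups. Without this library BNIP3 rose by 1.05 on the log2 scale with g1 (edgeR adjusted p = 0.00264) and was 0.45 with g2 (edgeR adjusted p = 0.153).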

How the results depend on the processing

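No paired analysis was possible because the labels carry no replicate numbers, those used here being names given in order of deposit. HIF1A with g1 and g2 together was called in 18 of 20 alternatives, VEGFA in 10 and BNIP3 in 8. With g1, HIF1A was called in 17 of 19, VEGFA in 18 and BNIP3 in 17, and with g2, HIF1A in 13 of 18, ADM in 12 and NDRG1 in 8. Against a fold of 1.5 (glmTreat) the genes called were 488 with g1 and g2 together, 506 with g1, 802 with g2 and 92 for g2 against g1, and 0 members were called in each, with an unadjusted glmTreat p under 0.05 for 1, 2, 1 and 1 members. Without 1 library the genes called were 1702 to 2425, 1249 to 2262 (lowest without g1 replicate 3), 1497 to 3111 (lowest without g2 replicate 2) and 266 to 857 (266 without g1 replicate 1, 314 without g1 replicate 2), and the members called 1 to 4, 2 to 3, 1 to 3 and 0 to 2. Leaving out a g2 library leaves 1, which is assumed to vary like the others.

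With g1 and g2 together, library totals, no filter and limma on log2(RPM + 1) each called 1 member, and limma on log2(TPM + 1) called 0, with an unadjusted p under 0.05 for 4. With g2, library totals and TPM each called 1 member, and for g2 against g1 DESeq2, library totals, RPM and TPM each called 1. On the TPM scale the log2 difference with g2 turned to -0.0095 for HIF1A and to -0.034 for VEGFA. The cause was not tested for either gene. HIF1A between g2 and g1 was -0.092 with library totals, -0.095 on the RPM scale, -0.50 on the TPM scale and -0.0090 without a filter, and EPAS1 there was 0.0039 with DESeq2, 0.0011 with its size factors and 0.0089 on the TPM scale. Their causes were not tested.

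Without 1 library the sign turned in ADM with g1 and g2 together (-0.41 to 0.092), P4HA1 with them (-0.17 to 0.069), NDRG1 with g1 (-0.25 to 0.25), and with g2 in VEGFA (-0.18 to 0.69), ANKRD37 (-0.97 to 0.10) and P4HA1 (-1.04 to 0.058). Between g2 and g1 it turned in HIF1A (-0.13 to 0.18), EPAS1 (-0.29 to 0.27) and ANKRD37 (-0.25 to 0.82). Scaling to library totals moved the median of all genes with g2 from -0.0017 to -0.159 and the share of lower calls from 54.9% to 73.3% (57.5% to 69.4% with g1 and g2 together, 68.6% to 83.4% for g2 against g1). Low counts limit ADM, EGLN3 and CA9.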
